A study of Mus musculus with 12 samples.

Results

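Acetylation of histone H4 at lysine 8 (H4K8ac) was examined at 10 genes that mark astrocytes, in cells sorted as oligodendrocyte progenitors. The genes are Gfap, S100b, Slc1a3, Slc1a2, Glul, Aqp4, Slc4a4, Gja1, Aldh1l1 and Aldoc. They were taken by gene name from the peak lists, in which 23433 genes had a peak in at least 1 library, and all 10 were among these. Oligodendrocyte progenitor cells (OPCs) were sorted from forebrain at postnatal day 5 (neonatal) or 60 (adult), with 3 H4K8ac libraries at each age. Both ages carried the same PdgfrαH2BEGFP allele, which places a nuclear green fluorescent protein under Pdgfra. Cells were thus selected by the signal of this reporter and not by a lineage trace. Chromatin was crosslinked with paraformaldehyde and each library was made from 2 ng of immunoprecipitated DNA. The 6 input libraries were not analysed here. The labels call the replicates biological and do not say whether animals were pooled.

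H4K8ac is a histone acetylation found at active promoters and enhancers, where acetylated lysines loosen the contact of the histone tail with DNA and are read by bromodomain proteins. Astrocytes and OPCs are separate glial cell types that descend from common neural precursors. The 10 genes carry out tasks that define mature astrocytes, namely building glial filaments, clearing glutamate, moving water and bicarbonate, coupling cells through gap junctions and running folate and sugar metabolism. Several of them, among them Slc1a3 and Glul, are also known to be transcribed in other glia or their precursors.

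The promoters of 5 of the genes are printed because they span the patterns described below: a promoter covered by peaks in the adult libraries (S100b, Slc1a3), a promoter never covered (Gfap), a promoter rich in CG that was covered at both ages (Slc4a4), and a start site with separate peaks before and after it in the adult libraries (Glul). Each is 300 bases of RefSeq sequence on GRCm38.p6, running from 250 bases before a transcription start to 50 bases after it, 5′ to 3′ on the gene's strand. Capitals mark CG dinucleotides. The S100b window lies at chr10:76253586-76253885 on the plus strand and that of Slc1a3 at chr15:8710758-8711057 on the minus strand. The Gfap window lies at chr11:102897151-102897450 on the minus strand. The Slc4a4 window lies at chr5:88887010-88887309 and that of Glul at chr1:153899679-153899978, both on the plus strand.
S100b: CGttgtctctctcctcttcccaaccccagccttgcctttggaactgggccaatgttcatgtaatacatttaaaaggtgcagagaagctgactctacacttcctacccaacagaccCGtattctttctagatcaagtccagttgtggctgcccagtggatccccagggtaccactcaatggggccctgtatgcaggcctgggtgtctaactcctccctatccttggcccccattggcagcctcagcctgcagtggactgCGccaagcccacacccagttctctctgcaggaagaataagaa
Slc1a3: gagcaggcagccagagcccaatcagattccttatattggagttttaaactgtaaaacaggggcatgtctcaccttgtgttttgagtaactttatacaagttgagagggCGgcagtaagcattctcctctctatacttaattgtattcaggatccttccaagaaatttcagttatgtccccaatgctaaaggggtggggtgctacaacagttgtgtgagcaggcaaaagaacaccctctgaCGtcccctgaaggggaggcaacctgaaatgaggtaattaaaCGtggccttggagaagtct
Gfap: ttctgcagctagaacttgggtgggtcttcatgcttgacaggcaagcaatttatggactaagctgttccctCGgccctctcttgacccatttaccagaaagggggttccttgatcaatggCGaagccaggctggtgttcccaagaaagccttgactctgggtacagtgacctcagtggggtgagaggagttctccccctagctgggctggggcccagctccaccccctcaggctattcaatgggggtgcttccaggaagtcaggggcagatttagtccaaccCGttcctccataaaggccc
Slc4a4: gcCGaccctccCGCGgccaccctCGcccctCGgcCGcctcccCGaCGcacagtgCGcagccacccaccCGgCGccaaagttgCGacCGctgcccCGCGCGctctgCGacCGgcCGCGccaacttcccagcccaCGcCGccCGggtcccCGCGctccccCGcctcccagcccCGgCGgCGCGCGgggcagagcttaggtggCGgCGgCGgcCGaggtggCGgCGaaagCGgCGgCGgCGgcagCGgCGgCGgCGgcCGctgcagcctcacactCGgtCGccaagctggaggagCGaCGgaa
Glul: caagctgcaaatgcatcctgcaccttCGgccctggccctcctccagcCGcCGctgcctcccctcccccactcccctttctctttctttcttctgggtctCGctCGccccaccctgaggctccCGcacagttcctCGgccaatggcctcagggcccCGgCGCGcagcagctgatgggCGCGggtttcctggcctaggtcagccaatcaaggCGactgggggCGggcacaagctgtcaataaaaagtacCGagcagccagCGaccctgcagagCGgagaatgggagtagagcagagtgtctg

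The S100b, Slc1a3 and Gfap windows each held 3 CG dinucleotides, the Glul window 17 and the Slc4a4 window 50. Over all 32851 RefSeq promoter windows of this length the median was 7, with quartiles of 3 and 20, so the windows of S100b, Slc1a3 and Gfap were at the lower quartile and that of Slc4a4 stood at percentile 99.1. Peaks covered all 300 bases of the S100b window in the 3 adult libraries and none in the 3 neonatal libraries. In the Slc1a3 window they covered 175, 204 and 300 bases in the adult and none in the neonatal libraries. The Gfap window had no covered base in any library, although its CG number was the same as in those of S100b and Slc1a3. In the Slc4a4 window 300 bases were covered in neonatal replicate 2, none in the other neonatal libraries, and 296, 0 and 300 in the adult ones. In the Glul window 0, 5 and 0 bases were covered in the neonatal and 85, 78 and 134 in the adult libraries. The adult bases belong to an upstream peak that the lists assign to the microRNA gene Mir8114, since every adult peak assigned to Glul began after this window.

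Among genes with 0 to 3 CG in their promoter window (4373 genes), 3.00%, 7.84% and 2.70% had a promoter peak in the neonatal libraries and 10.6%, 10.0% and 10.6% in the adult ones. Among genes with 25 to 65 CG (4278 genes) the shares were 54.0%, 85.8% and 48.6% in neonatal and 86.5%, 84.1% and 84.2% in adult libraries. S100b, Slc1a3 and Gfap fall in the first class, which seldom carried a promoter peak at either age. Its shares count any annotated promoter peak and not coverage of the printed window. In that count S100b and Slc1a3 had a promoter peak in all 3 adult libraries and in 1 and 2 neonatal libraries. Gfap had one in 1 library of each age. The printed windows were searched on both strands for 3 motifs, whose matches did not overlap one another. TTGGCA, recognised by nuclear factor I, occurred once in the S100b window and is present in 14.1% of all promoter windows. The STAT motif TTCNNNGAA occurred once each in the windows of Slc1a3 and Gfap and is present in 8.30% of all windows. TATAAA, the sequence of the core promoter box, is present in 13.6% of all windows. It occurred once in the Slc1a3 window, before the start and on the strand opposite to the gene. Whether that match acts as a core promoter box was not tested. No match of the 3 motifs was found in the Slc4a4 and Glul windows.

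The libraries differed strongly in the length of their lists, which bears on every value below. Replicates 1, 2 and 3 had 9097, 31189 and 7353 peaks at the neonatal age and 72278, 72661 and 77002 at the adult age, covering 2.33 to 13.7 Mb and 41.9 to 60.9 Mb. Neonatal replicate 2 stood apart from the other neonatal libraries, so results are given with and without it where it decides them. The read depth of the libraries is unknown, and how far depth or enrichment set the length of the lists was not tested. As a check of the sorted identity, 15, 16 and 10 of 16 OPC markers had a promoter peak in the neonatal libraries. In each adult library 14 of 16 did. Over all 23433 genes the share was 27.2%, 58.5% and 24.0% in neonatal and 66.2%, 64.5% and 66.1% in adult libraries. Pdgfra, Cspg4, Olig1, Olig2 and Sox10 were marked in all 6, whereas Ptprz1 and Vcan had no peak in adult replicate 2. The OPC markers covered 7.77 to 53.5 kb in neonatal and 83.2 to 112 kb in adult libraries. Scaled to list length, 0 of 16 lay above in every adult and 7 in every neonatal library, against 25.2% and 14.3% of all genes. Of 16 myelin genes 3, 7 and 3 had a promoter peak in the neonatal and all 16 in each adult library. The covered length over those 16 myelin genes was 0.896 to 12.6 kb in neonatal and 217 to 305 kb in adult libraries. Mag, Mobp and Opalin had no assigned peak at the neonatal age. In bulk chromatin, a change in the share of cells that carry a mark and a change in the mark per cell cannot be told apart.

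All 10 astrocyte genes had a peak in some library, and 9 of them a peak annotated as promoter (within 3000 bp of a transcription start), the exception being Aqp4. The number of the 10 genes with a promoter peak was 4, 8 and 2 at the neonatal age and 7, 5 and 8 at the adult age, in replicates 1, 2 and 3. The means were 4.67 ± 3.06 and 6.67 ± 1.53 genes (SD, n = 3 each), and the ranges overlapped. The difference of 2 genes became 3.67 without neonatal replicate 2 and 0.667 without neonatal replicate 3. Over all 23433 genes the share with a promoter peak was 27.2%, 58.5% and 24.0% in neonatal and 66.2%, 64.5% and 66.1% in adult libraries. Glul alone of the 10 had a promoter peak in all 6 libraries, a pattern shown by 21.5% of the genes with any promoter peak. None of the 10 had a promoter peak in the 3 adult libraries while lacking one in every neonatal library, against 12.1% of the 18548 genes with a promoter peak. None had the reverse pattern, against 0.264%. Without neonatal replicate 2, S100b and Slc4a4 (2 of 10) had a promoter peak in every adult library and in neither remaining neonatal library, against 38.2% of genes.

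The larger difference between ages lay outside the annotated promoters. Promoter peaks at the 10 genes numbered 5, 16 and 2 in the neonatal and 21, 16 and 24 in the adult libraries, so neonatal replicate 2 equalled adult replicate 2. Other peaks numbered 1, 8 and 0 in the neonatal and 31, 29 and 39 in the adult libraries, with means of 3 ± 4.36 and 33 ± 5.29 (SD, n = 3 each) and no overlap. Of the peaks pooled over the adult libraries 61 were promoter, 57 distal intergenic, 39 intronic, 2 in a 3′ UTR and 1 exonic. Of the neonatal peaks 23 were promoter, 5 distal intergenic, 3 intronic and 1 exonic. Promoter peaks thus made up 83.3%, 66.7% and 100% of the peaks at these genes in neonatal and 40.4%, 35.6% and 38.1% in adult libraries. In the whole lists the promoter share was 85.2%, 67.5% and 88.8% in neonatal and 43.9%, 43.1% and 40.4% in adult libraries, close to the shares at the 10 genes.

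**Figure D1:**
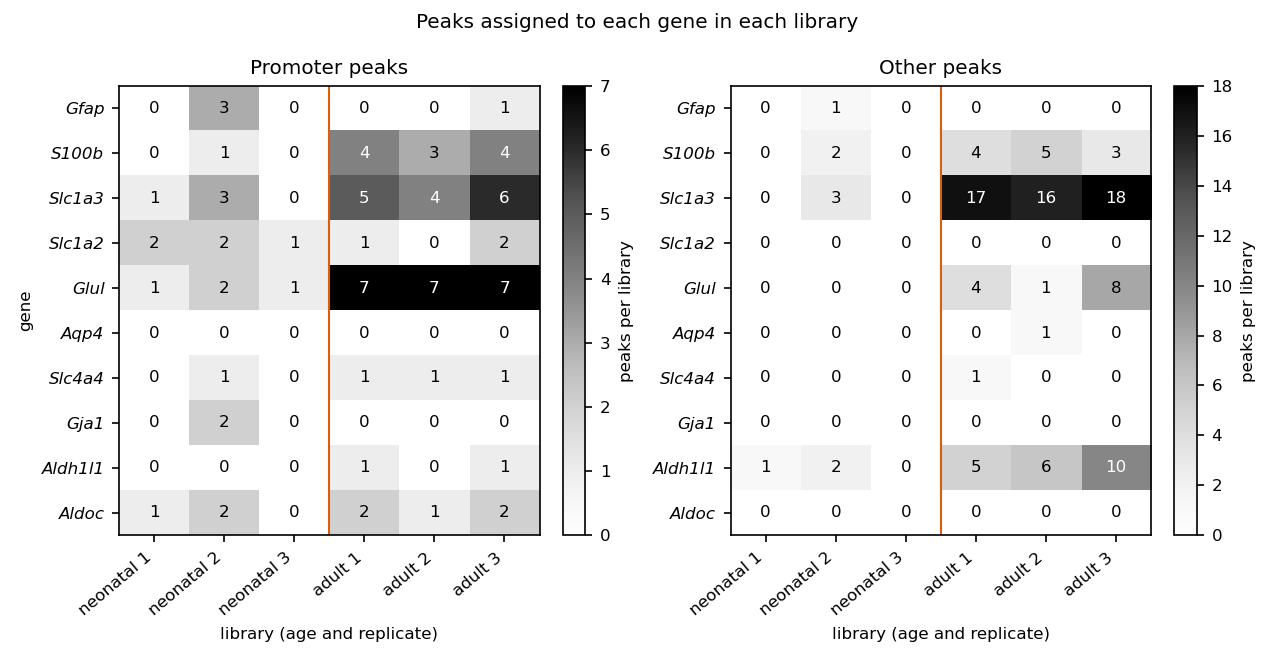
Number of peaks assigned to each of the 10 genes (rows) in each of the 6 libraries (columns), for promoter peaks on the left and all other peaks on the right; darker cells hold more peaks, the number is printed in each cell, and the vertical line divides the ages. Glul held 7 promoter peaks in each adult library, Slc1a3 held 16 to 18 other peaks in the adult libraries, and Gja1 had peaks in neonatal replicate 2 only.

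The length covered by peaks assigned to a gene takes number and width together. Summed over the 10 genes it was 1.75, 9.33 and 0.532 kb in the neonatal and 23.7, 23.6 and 39.9 kb in the adult libraries, a difference in means of 25.2 kb with no overlap between ages. Slc1a3, Glul and S100b held most of the adult sum, at 19.4, 20.6 and 32.9 kb, against 0.520, 3.77 and 0.241 kb in the neonatal libraries. The other 7 genes together covered 1.23, 5.56 and 0.291 kb in neonatal and 4.25, 2.99 and 7.08 kb in adult libraries, and here neonatal replicate 2 lay above adult replicates 1 and 2. All adult libraries exceeded all neonatal ones at 4 of the 10 genes (S100b, Slc1a3, Glul and Aldh1l1), against 60.0% of the 23433 genes tested. No member lay lower in every adult library, against 0.303% of genes. The remaining 6 genes overlapped between ages. The median difference, adult minus neonatal, was 0.317 kb over the 10 genes and 0.661 kb over all genes. Of the 10 genes, 4 exceeded the latter. Among all genes these stood at percentiles 83.6 (Aldh1l1), 92.2 (S100b), 93.3 (Glul) and 96.8 (Slc1a3). The other 6 stood at 1.56 (Gfap), 1.90 (Gja1), 2.74 (Slc1a2), 15.1 (Aqp4), 30.8 (Slc4a4) and 35.2 (Aldoc). The smallest p-value of the exact two-sided permutation test on 3 against 3 libraries is 0.1, and its Benjamini-Hochberg adjusted value over all genes was 0.166, so no gene could pass 0.05.

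**Figure D2:**
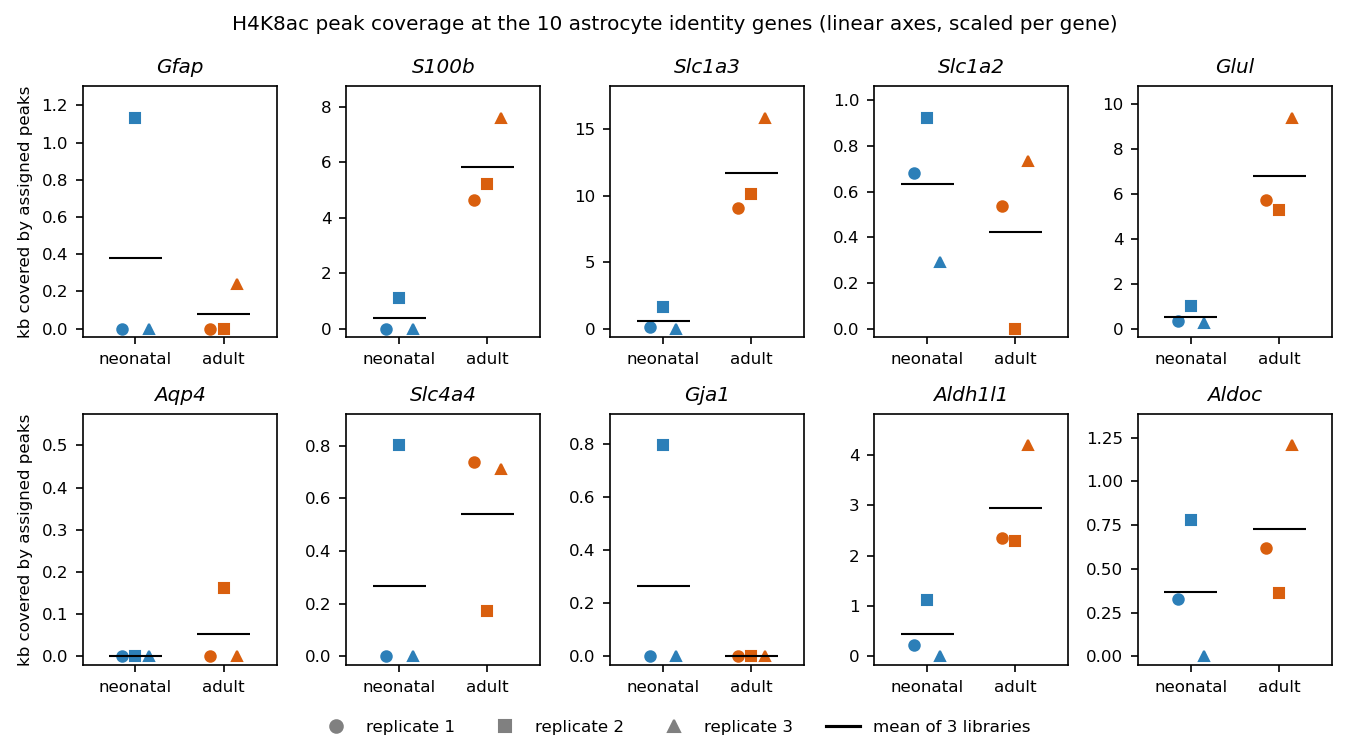
Length covered by the peaks assigned to each gene (kb, vertical axes scaled per gene) in the neonatal and adult libraries; symbols mark replicates 1 to 3 and the horizontal line is the mean of 3 libraries. The ages do not overlap at S100b, Slc1a3, Glul and Aldh1l1, whereas at Gfap, Slc1a2, Slc4a4 and Gja1 the highest point is neonatal replicate 2.

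Of the structural and calcium-binding genes, S100b and Gfap behaved differently. S100b, which encodes a small calcium-binding protein used as a glial marker, lies at chr10:76253836-76261319. Its covered length was 0, 1.11 and 0 kb in neonatal and 4.63, 5.22 and 7.60 kb in adult libraries. The means were 0.370 ± 0.641 and 5.82 ± 1.57 kb (SD, n = 3 each), and the ages did not overlap (exact permutation p = 0.1, adjusted p = 0.166). S100b peaks formed 10 regions once overlapping peaks were joined across libraries. The widest, 4.04 kb, ran from 2.48 to 6.51 kb upstream of the start, was found in each adult library and reached neonatal replicate 2 only as a pair of short peaks. A second region of 2.19 kb spanned the start itself, from 1.36 kb upstream to 0.828 kb downstream. In neonatal replicate 2 the only peak of that region lay inside the gene, which is why the printed S100b promoter had no covered base at the neonatal age. Regions 6.87 to 7.33 kb upstream and 3.94 to 4.34 kb downstream, the latter intronic, were in all 3 adult and no neonatal libraries.

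Gfap, the intermediate filament gene of astrocytes, lies at chr11:102887336-102897200. Its covered length was 0, 1.13 and 0 kb in neonatal and 0, 0 and 0.242 kb in adult libraries. Only neonatal replicate 2 and adult replicate 3 had a Gfap peak at all, and the ages overlapped (exact permutation p = 1). The peak that both shared lay 3.92 to 4.26 kb upstream of the RefSeq start. The remaining 3 regions, 0.859 to 1.17 kb and 1.44 to 1.65 kb upstream and in an exon, were found in neonatal replicate 2 alone. Without that library the mean difference changed sign, from -0.297 to 0.0807 kb. The neighbouring Eftud2, a splicing factor gene, had a peak within 10 kb of Gfap in all 6 libraries, of 0.169 to 0.679 kb in neonatal and 0.737 to 1.38 kb in adult libraries.

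The glutamate genes split likewise. Slc1a3 encodes GLAST, a transporter that takes up glutamate from the extracellular space, and lies at chr15:8634124-8710807. It had the greatest adult covered length of the 10, at 9.05, 10.1 and 15.9 kb against 0.167, 1.64 and 0 kb in neonatal libraries. The means were 11.7 ± 3.67 and 0.602 ± 0.902 kb (SD, n = 3 each) with no overlap (exact permutation p = 0.1, adjusted p = 0.166), and the difference of 11.1 kb stood at percentile 96.8 of all genes. Its peaks formed 30 regions, of which 26 were seen in adult libraries only and 5 of these in all 3. The region over the start, 2.54 kb wide, was present in neonatal replicates 1 and 2 and in every adult library. Upstream, a region 4.81 to 8.23 kb from the start was shared by neonatal replicate 2 and the adult libraries. Regions 30.0 to 32.2 kb and 64.7 to 66.3 kb upstream had peaks in all adult and no neonatal libraries. All Slc1a3 regions upstream of the start lay over another RefSeq gene, Gm31340. A further region 80.7 to 81.8 kb downstream of the start, past the end of the gene, was again shared with neonatal replicate 2. Neonatal replicate 3 had no peak assigned to Slc1a3.

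The assigned peaks understate the coverage around Slc1a3. Peaks assigned to the unnamed model Gm37310 within the gene and 10 kb on either side numbered 2 in neonatal replicate 2 and 10, 10 and 12 in the adult libraries, covering 0.932 kb and 4.94 to 10.3 kb. Counted by position, the covered length in that window was 0.167, 2.57 and 0 kb in neonatal and 10.9, 13.5 and 21.5 kb in adult libraries.

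Slc1a2 encodes GLT-1, the main glutamate transporter of mature astrocytes, and lies at chr2:102658239-102790784. In contrast to Slc1a3, its covered length was 0.682, 0.924 and 0.291 kb in neonatal and 0.537, 0 and 0.734 kb in adult libraries. It was the only member besides Glul with a peak in every neonatal library, and adult replicate 2 had none. The means, 0.632 ± 0.319 and 0.424 ± 0.380 kb (SD, n = 3 each), overlapped (exact permutation p = 0.6, adjusted p = 0.763). The mean difference of -0.209 kb rested on adult replicate 2 and was 0.00317 kb without it. All its peaks fell in 2 promoter regions. One spanned the start, and the other lay 0.458 to 1.26 kb downstream and held a peak in all 3 neonatal and in adult replicates 1 and 3. No Slc1a2 peak was found in the remainder of a gene 133 kb long.

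Glul encodes glutamine synthetase, which converts glutamate to glutamine, and lies at chr1:153899929-153909723. Its covered length was 0.353, 1.02 and 0.241 kb in neonatal and 5.73, 5.26 and 9.39 kb in adult libraries. The means were 0.537 ± 0.419 and 6.79 ± 2.26 kb (SD, n = 3 each), without overlap (exact permutation p = 0.1, adjusted p = 0.166). Its first region, 0.045 to 4.80 kb downstream of the start, was the only one of the 86 regions at the 10 genes with a peak in all 6 libraries. The widest single peak was 353, 877 and 241 bp in the neonatal and 2628, 2614 and 4744 bp in the adult libraries. In adult libraries the peaks then continued into the gene body and beyond it. Past 8.42 kb downstream of the start no region was found in all 3 adult libraries. The last peak, which ended 20.1 kb downstream and was 0.158 kb wide, was in adult replicate 3 only. The lists annotate Glul peaks as promoter up to 8.67 kb downstream, since their nearest annotated start is that of another Glul transcript. Peaks assigned to Mir8114, whose annotated position overlaps the Glul start, lay just upstream of Glul in neonatal replicates 1 and 2 and in all adult libraries, with 0.290 and 0.196 kb and then 0.358, 0.675 and 0.920 kb.

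**Figure D3:**
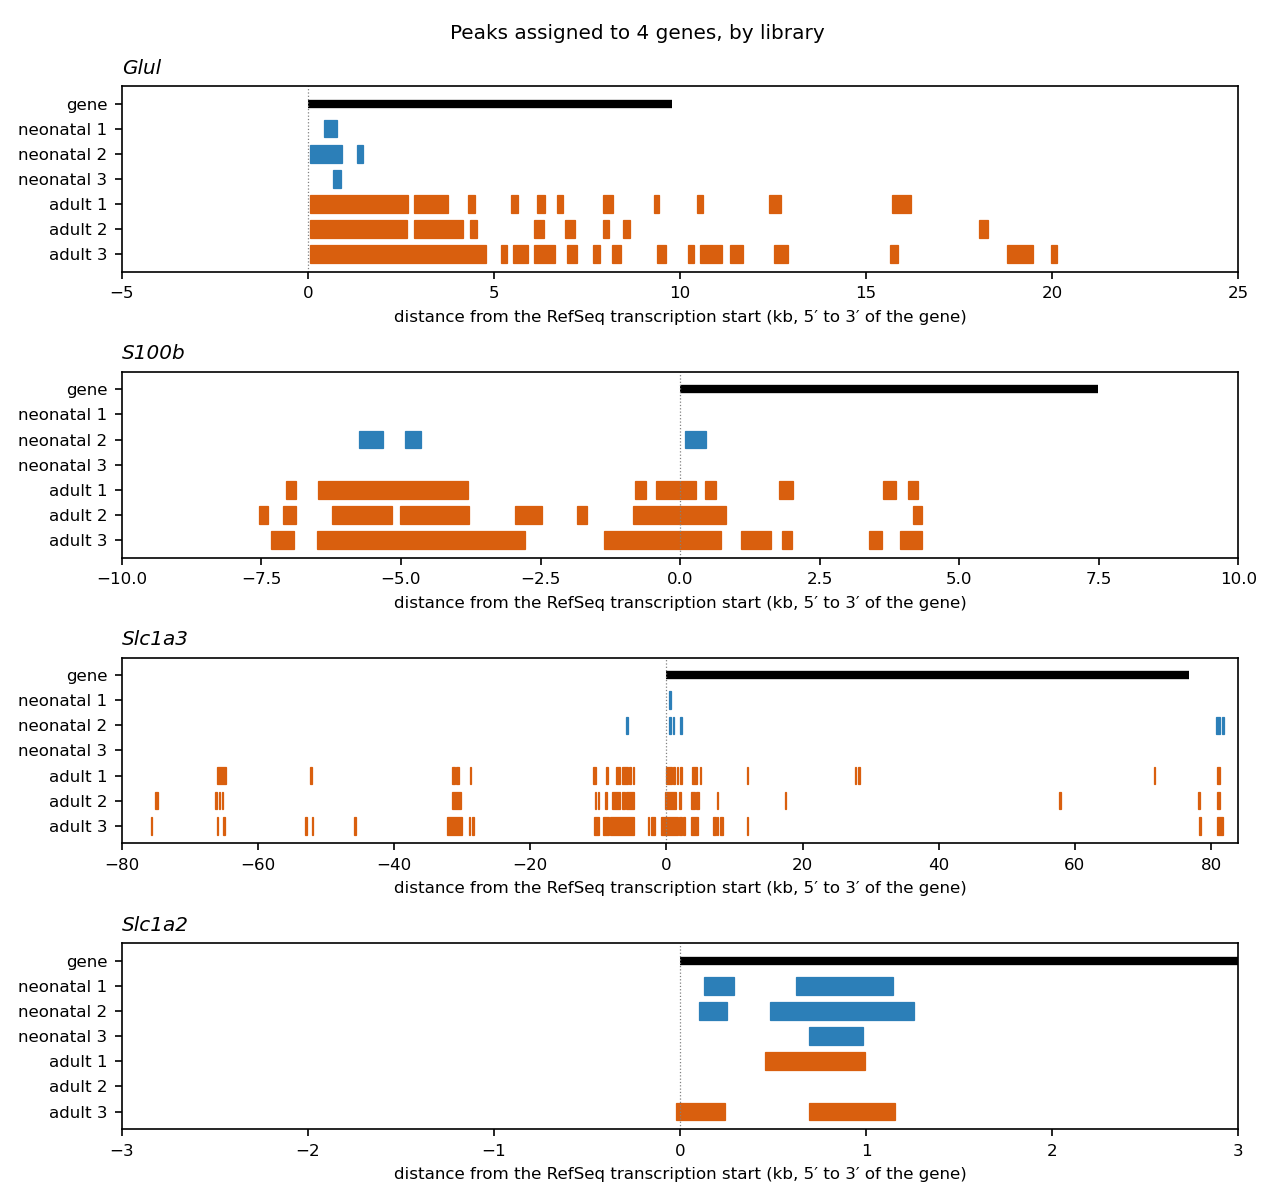
Peaks assigned to Glul, S100b, Slc1a3 and Slc1a2 in each library, drawn by distance from the RefSeq transcription start (kb, upstream to the left; the scale differs by panel, and short peaks appear as a thin line); the black bar is the gene, cut at the right edge for Slc1a2. The farthest peak beyond the Glul start (20.1 kb) and the farthest upstream of Slc1a3 (75.8 kb) were each in adult replicate 3 only. Slc1a2 peaks stay within 1.26 kb of its start at both ages.

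The genes for water and ion transport and for coupling had few peaks. Aqp4, the water channel of astrocyte endfeet, had no peak in the gene or within 10 kb of it in any library. Its single assigned peak, 0.163 kb in adult replicate 2, lay 141 kb upstream inside Chst9, a sulfotransferase gene. Gja1, which encodes the gap junction protein connexin 43, had a covered length of 0.796 kb in neonatal replicate 2 and 0 in each of the other 5 libraries. The ages overlapped at Aqp4 and Gja1 (exact permutation p = 1 for each). The Gja1 peaks lay 0.657 to 0.946 kb and 1.37 to 1.88 kb downstream of its start. Slc4a4, a sodium bicarbonate cotransporter gene, covered 0, 0.801 and 0 kb in neonatal and 0.739, 0.172 and 0.713 kb in adult libraries. It overlapped through neonatal replicate 2 alone (exact permutation p = 0.4, adjusted p = 0.518). The Slc4a4 promoter region, 0.818 kb wide, lay at an internal start 92.8 to 93.6 kb inside the longest RefSeq gene model, which is the start whose CG-rich sequence is printed above.

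Of the metabolic enzymes, Aldh1l1 was the fourth gene with separated ages. It encodes a folate enzyme widely used as a pan-astrocyte marker and lies at chr6:90550768-90599171. Its covered length was 0.218, 1.13 and 0 kb in neonatal and 2.35, 2.30 and 4.19 kb in adult libraries, with means of 0.449 ± 0.599 and 2.95 ± 1.08 kb (SD, n = 3 each). The ages did not overlap there either, and the exact permutation p was 0.1 (adjusted p = 0.166). None of this length lay at the RefSeq start. The regions found in each adult library lay 14.9 to 16.4 kb and 54.0 to 55.3 kb upstream of it, annotated as intron of a longer Aldh1l1 transcript, and no RefSeq gene overlapped them. The region 15.5 to 16.4 kb upstream was present in neonatal replicates 1 and 2 and in all adult libraries. Counted by position within 10 kb of the gene, where peaks assigned to Slc41a3 supplied 0.193, 0.508 and 0.408 kb in neonatal and 0.629, 0.729 and 0.840 kb in adult libraries, Aldh1l1 no longer separated the ages. Its means were then 0.457 ± 0.291 and 0.883 ± 0.169 kb (SD, n = 3 each).

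Aldoc encodes the aldolase isoform enriched in astrocytes and lies at chr11:78323073-78327781. Its covered length was 0.326, 0.779 and 0 kb in neonatal and 0.619, 0.362 and 1.21 kb in adult libraries, and the ages overlapped (exact permutation p = 0.4, adjusted p = 0.518). Nearly all of it lay in 1 region over the start, from 0.534 kb upstream to 0.878 kb downstream, which was present in neonatal replicates 1 and 2 and in all adult libraries. Counted by position within 10 kb of Aldoc, with peaks assigned to Pigs included, the covered length was 0.326, 1.10 and 0.162 kb in neonatal and 1.37, 1.24 and 2.10 kb in adult libraries, and the ages did not overlap. Without neonatal replicate 2, 6 of the 10 genes lay above in every adult library, with Slc4a4 and Aldoc added, against 74.6% of 22176 genes.

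Joined across libraries, the peaks of the 10 genes made 86 regions, of which 66 were found in adult libraries only, 7 in neonatal only and 13 at both ages. Peaks in all 3 adult and no neonatal library marked 12 regions, 5 at Slc1a3, 3 at Aldh1l1, 2 at S100b and 2 at Glul. No region had the reverse pattern. The 7 neonatal regions were 3 at Gfap, 2 at Gja1, 1 at Aldh1l1 and 1 at Aldoc, and each was seen in neonatal replicate 2 only. A single library accounted for 47 of the 86 regions. These counts were not set beside all joined regions of the lists, so whether they are particular to the 10 genes was not tested. The adult lists held 72278 to 77002 peaks against 7353 to 31189 in the neonatal lists.

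Scaling to the length of each list changed which genes stood apart. Per Mb covered by the whole list, the 10 genes together covered 0.587, 0.680 and 0.228 kb in neonatal and 0.565, 0.533 and 0.655 kb in adult libraries, and the ages overlapped. S100b, Slc1a3 and Glul (3 of 10) remained above in every adult library, against 25.2% of all genes. Glul did so narrowly, at 0.137, 0.119 and 0.154 kb per Mb in adult libraries against 0.119, 0.0741 and 0.103 in neonatal libraries, where adult replicate 2 and neonatal replicate 1 are equal to the digits given. Slc1a2 (1 of 10) lay above in every neonatal library, against 14.3% of genes, with 0.229, 0.0673 and 0.125 kb per Mb against 0.0128, 0 and 0.0120 in adult libraries. Among the 7353 strongest peaks of each library, the length of the shortest list, Slc1a3 and Glul (2 of 10) separated the ages upward in adult libraries, against 34.4% of 10859 genes. In that set the number of the 10 genes with a promoter peak was 4, 2 and 2 in neonatal and 1, 2 and 3 in adult libraries.

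The authors' deposited table of differential sites between the ages was read next, with a positive log2 fold change taken as higher in adult cells. This reading rests on overlap with the lists: 85.0% to 96.7% of positive sites met a peak of each adult library and 10.3% to 27.8% a peak of each neonatal library. Nearly all sites of the authors' deposited table were positive, 43634 of 43888. Through the peaks they overlapped, 27 sites of this table fell to the 10 genes, and all 27 were positive. These were 10 at Slc1a3, 9 at Glul, 4 at S100b and 4 at Aldh1l1, so 4 of the 10 genes had a site higher in adult cells, against 65.1% of all genes. None had a site higher in neonatal cells, against 0.977%. Their median value, as log2 fold change from the authors' deposited table, was 2.25, beside 2.41 for all 43888 listed sites. Gfap, Slc1a2, Aqp4, Slc4a4, Gja1 and Aldoc had no site of their own there.

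Ranked by p-value, the leading Glul site of the authors' deposited table lay beyond the end of the gene, with a log2 fold change of 5.88 (adjusted p = 1.26e-06). The leading Slc1a3 site was intronic, at 5.78 (adjusted p = 2.11e-06 in the authors' deposited table). That of S100b fell in the wide upstream region, at 2.22 (adjusted p = 5.80e-06 in the authors' deposited table). That of Aldh1l1 lay in its upstream intron, at 1.43 (adjusted p = 0.00764 in the authors' deposited table). At the start sites themselves the authors' deposited table gave smaller values, 1.82 for Glul, 1.73 for Slc1a3 and 2.09 for S100b, beside a median of 1.86 over all promoter sites. The Glul start site was the only one of the 27 that met a peak in all 6 libraries.

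**Figure D4:**
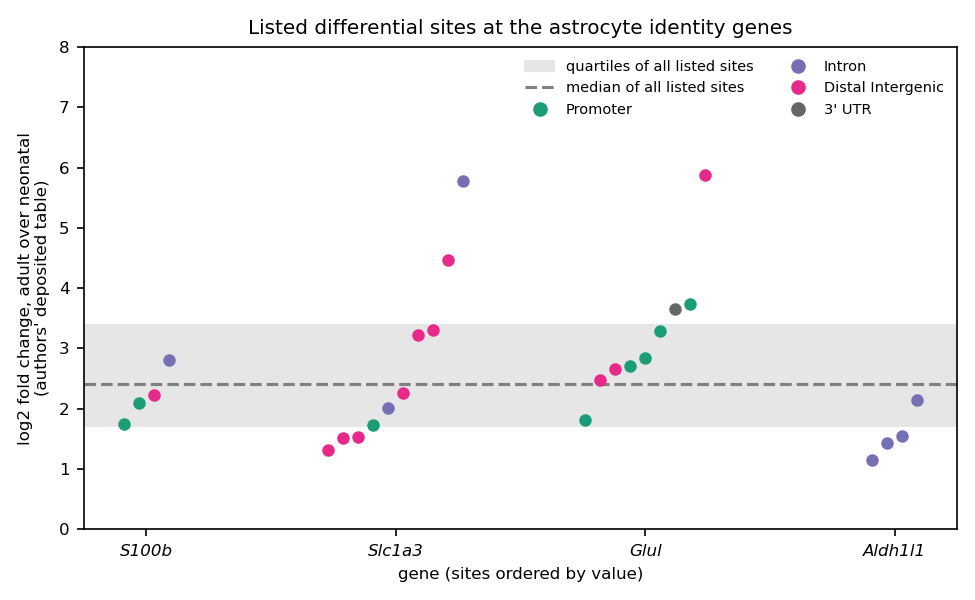
Log2 fold change (adult over neonatal) of the 27 sites that the authors' deposited table lists at 4 of the 10 genes, each point a site, coloured by the class of its position and ordered by value within a gene; the dashed line and grey band are the median and quartiles of all listed sites. Glul and Slc1a3 each have a site above 5, and all 4 Aldh1l1 sites lie below the median of 2.41.

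A wider list of 24 astrocyte genes gave a similar spread of patterns. Of these, 23 had a peak in some library and Mlc1, a membrane protein gene of astrocyte endfeet, had none. Promoter peaks were found at 11, 22 and 7 of the 24 in neonatal and 18, 16 and 16 in adult libraries. The shares over all genes were 27.2%, 58.5% and 24.0% in neonatal and 66.2%, 64.5% and 66.1% in adult libraries. All adult libraries exceeded all neonatal ones at 11 of the 23, beside the 60.0% of all genes given above, and none lay below. Per Mb of the list, 2 of the 23 lay above in adult and 4 in neonatal libraries, against 25.2% and 14.3% of all genes. The largest differences were at Kcnj10, a potassium channel gene, at 16.0 kb, Hepacam, a cell adhesion gene, at 8.90 kb, and Gpr37l1, an orphan receptor gene, at 6.54 kb. Kcnj10 covered 0.517, 4.56 and 0.451 kb in neonatal and 15.7, 18.3 and 19.5 kb in adult libraries. The lowest differences were at F3, the tissue factor gene, at -0.409 kb, Sox9, a glial transcription factor gene, at -0.302 kb, and Gjb6, the connexin 30 gene, at -0.294 kb. Sox9 had peaks of 0.246 and 0.660 kb in neonatal replicates 1 and 2 and none in neonatal replicate 3 or any adult library.

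**Figure D5:**
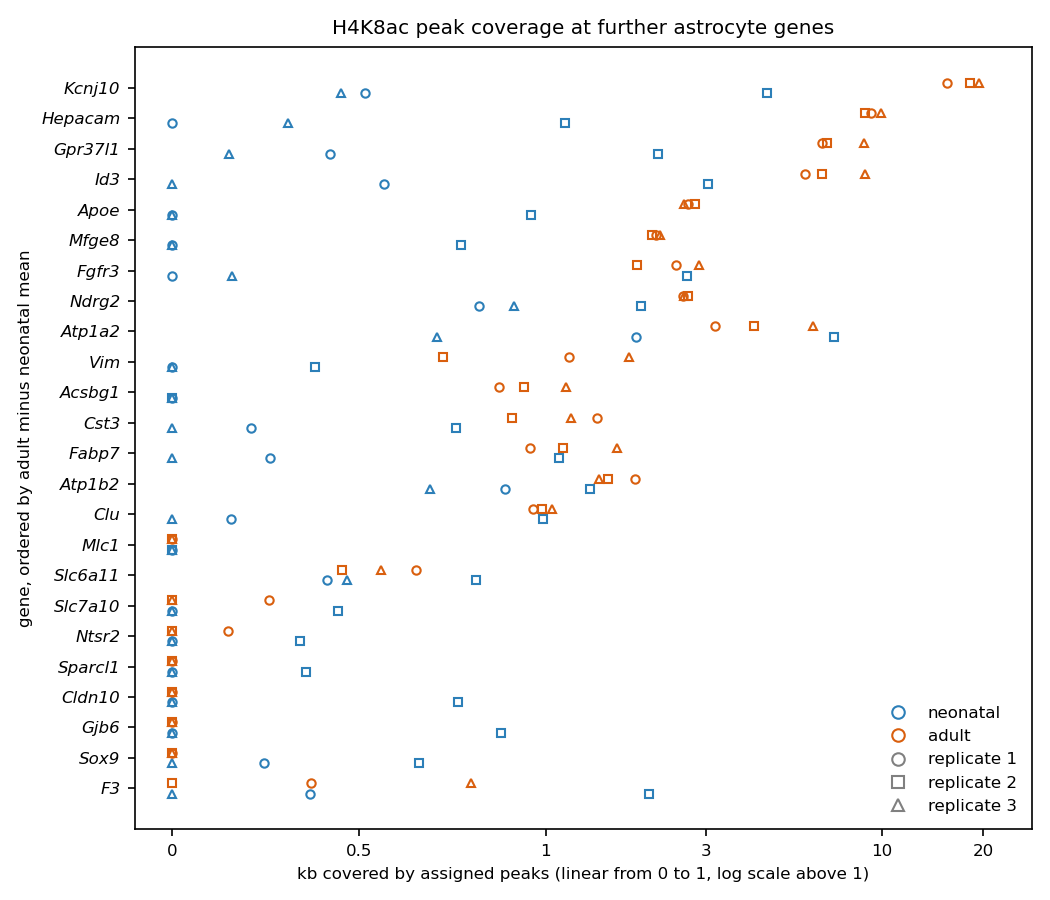
Length covered by assigned peaks (kb; linear from 0 to 1 and logarithmic above) at the 24 genes of the wider astrocyte list, ordered by the adult minus neonatal mean; colours give the age and symbols the replicate. Kcnj10, Hepacam and Gpr37l1 stand at the top with every adult library above every neonatal one, while Sox9, Gjb6, Cldn10 and Sparcl1 have no adult peak.

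Markers of other cells were read in the same way beside these values. The shares of all genes with a promoter peak, given above, are the background for each list. Of 16 neuronal genes 0, 10 and 1 had a promoter peak in neonatal and 9, 7 and 7 in adult libraries, and Snap25, Nefl, Stmn2, Slc17a6 and Slc32a1 had no peak in any library. Their summed covered length was 0 to 7.16 kb in neonatal and 11.5 to 17.8 kb in adult libraries. By covered length, 4 of the 16 (Rbfox3, Tubb3, Slc17a7 and Map2) lay above in every adult library, and none in every neonatal library. Per Mb of the list this still held for Rbfox3, Tubb3 and Slc17a7. Rbfox3 covered 0, 0.536 and 0 kb in neonatal and 3.32, 3.12 and 5.53 kb in adult libraries. Of 16 microglial genes only Cx3cr1 had a promoter peak, in the adult libraries, with summed lengths of 0 to 0.447 kb and 4.04 to 4.35 kb, and P2ry12, Tmem119, Csf1r and Aif1 had no peak. Of 16 endothelial genes 1, 4 and 1 had a promoter peak in neonatal and 5, 4 and 4 in adult libraries, with summed lengths of 0.161 to 4.09 kb and 10.1 to 14.3 kb. Of 16 housekeeping genes the numbers were 8, 14 and 6 and then 15 in each adult library. The part of other cell types in the values at the astrocyte genes was not tested.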

How the data were processed

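Of 12 samples, the 6 H4K8ac libraries (3 per age) were used, each with a deposited peak list of its own, which means calling was not done on pooled samples. Samples were grouped by the age in the labels. Per the submitters' processing notes, the tools were Trim Galore, Bowtie2 2.4.5, SAMtools, deepTools, MACS2, DiffBind and ChIPseeker on GRCm38; their settings are not given in the sources used here. Per the file headers, the authors' lists give each peak a score, a fold enrichment (ratio), −log10 p-value and q-value, and the nearest gene, and these peak values are the authors' own. The authors' deposited table of differential sites holds, for each site, a log2 fold change with its raw and adjusted p-value. Its sites were given the gene of the deposited peak sharing most bases (at least 1).

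Bases covered by the peaks assigned to each gene were summed per library for all 23433 genes with a peak, with list starts changed to count from 1, in Python 3.11.15, numpy 2.4.6, pandas 2.3.3 and scipy 1.17.1, and drawn with matplotlib 3.10.9. Ages were compared by whether the 3 and 3 libraries overlapped and by an exact two-sided permutation test over 20 arrangements, with Benjamini-Hochberg adjustment, checked on simulated data. Peaks of a gene that overlapped between libraries were joined into regions. All 10 genes were named, and of the wider list the 3 largest and 3 smallest differences. Of the listed sites, the one with the smallest p-value per gene, those at the start sites and those with values below the start sites are given. The start sites and those with lower values were chosen after their values were seen. RefSeq (GRCm38.p6) matched 10 of 10 genes and held a promoter sequence for 9. Alternatives were a q-value under 0.005, equal numbers of peaks, other promoter widths, windows of 10 kb, merging within 1000 bp, scaling to the list, and leaving out each library. The genes and lists were chosen with earlier results of these data known. Read depth is unknown, so no counting interval is given.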

Additional observations from a re-analysis of the deposited data

How the results depend on the processing

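All differences are adult minus neonatal. With the same number of strongest peaks per library, the difference in genes with a promoter peak reversed from 2 to -0.667, that in other peaks fell from 30 to 1, that in covered length from 25.2 to 5.85 kb, and the genes separating the ages from 4 to 2. The difference in other peaks was 24.3 at a q-value under 0.005 and 16.7 with peaks merged within 1000 bp. Leaving out each library in turn gave 0.667 (without neonatal replicate 3) to 3.67 (without neonatal replicate 2) genes with a promoter peak, 27 to 32.5 other peaks, 19.8 to 27.9 kb and 4 to 6 (without neonatal replicate 2) genes separating the ages. Genes with a promoter peak in every adult and no neonatal library rose from 0 to 2 without neonatal replicate 2 and to 1, Aldh1l1, without adult replicate 2. Single genes changed sign as follows: Gfap, to 0.334 kb by position within 10 kb and, leaving out each library, from -0.486 to 0.0807 kb (without neonatal replicate 2); Slc1a2, from -0.379 to 0.00317 kb (without adult replicate 2); Slc4a4, to -0.00837 kb per Mb of the list; and Aldoc, to -0.0412 kb per Mb and to -0.109 kb among the strongest peaks. Another 84 alternative values for single genes kept their direction or fell to 0, and 10 kept it but moved by more than the spread between libraries or to another unit, such as Slc1a3 to 1.47 kb and Aldh1l1 to 0.230 kb among the strongest peaks. By position within 10 kb, Aldh1l1 fell to 0.426 kb and lost its separation, and Aldoc rose to 1.04 kb and gained it. Counting by position left out the Aldh1l1 regions 12.7 kb or more upstream. It took in peaks assigned to Slc41a3 at Aldh1l1, Pigs at Aldoc and Eftud2 at Gfap. The causes of the other changes were not tested. Under a stricter adjusted p-value of 0.005, 19 of the 27 listed sites stayed in. The ages share replicate numbers that no label ties together, so the libraries were treated as unpaired. Same-numbered libraries correlated at 0.238, -0.237 and -0.272 in their deviations, and the other pairs at -0.262 to 0.279. With 3 libraries per age these correlations cannot decide whether the replicates were paired. With 1 library of each number per age, a replicate block cannot change a difference in means, so its values of 2 genes, 30 peaks and 25.2 kb are the same by construction and say nothing about stability. Unknown depth limits any reading of a missing peak as a missing mark.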
